A study of Mus musculus with 22 samples.

Results

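Col1a1, Col6a1, Col6a2, Col12a1, Fn1, Fbn1, Lox, Loxl1, Sparc and Thbs1 are 10 genes of the extracellular matrix and its crosslinking, and their H3K4me3 was followed in synovial fibroblasts. Their regions were taken as every row of the 4 deposited comparison tables that the authors had annotated to one of the 10 symbols, in any position class. This gave 81 of 26201 listed regions, with 45 in the table of Tg197 against wild-type (WT) cells at 3 weeks, 6 at 8 weeks, 20 at 11 weeks and 10 in the table of TNF-treated against untreated WT cells.

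Synovial fibroblasts are the stroma of the joint lining, and Tg197 is a mouse line with arthritis driven by a transgene for human TNF. The cells were of CBA x C57BL/6J strain and at passages 4 to 5 in every ChIP group, and each group had 3 libraries. Tg197 and WT mice aged 3, 8 and 11 weeks gave 6 groups, and a further group was TNF-treated WT cells from mice of 8 weeks, for which the labels give neither dose nor duration. The sources do not say whether separate mice or cultures lie behind the 3 libraries of a group, and the p-values therefore measure the spread between these libraries, which may be technical.

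Collagens are the tensile framework of connective tissue. Type I collagen forms thick fibrils, type VI collagen forms beaded filaments around cells, and type XII collagen lies on the fibril surface. Fibronectin and fibrillin assemble into fibres that other matrix proteins bind, the lysyl oxidases join collagen and elastin chains covalently, and Sparc and Thbs1 encode secreted proteins that tune how cells meet the matrix. Synovial fibroblasts are a main source of this matrix in the joint. H3K4me3, the trimethylated form of a lysine in the histone H3 tail, is concentrated around the start sites of active genes and is usually low along gene bodies.

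Promoter letters for Col6a1, Col6a2, Fbn1 and Sparc are shown because these are the members with an entry in the RefSeq promoter table (GRCm38.p6), 4 of the 10, and because Col6a1 alone of these 4 had a listed region that rose while its partner chain Col6a2 fell in the same table. Each run is the 250 bases before the annotated start, 5′ to 3′ on the gene's strand, which is the minus strand for all 4. Capitals mark matches to the searched motifs on either strand.
Col6a1, chr10:76726045-76726294: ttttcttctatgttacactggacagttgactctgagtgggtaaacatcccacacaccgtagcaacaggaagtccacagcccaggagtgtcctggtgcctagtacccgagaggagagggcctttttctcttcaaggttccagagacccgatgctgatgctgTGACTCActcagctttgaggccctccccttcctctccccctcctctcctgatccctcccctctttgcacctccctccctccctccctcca
Col6a2, chr10:76623405-76623654: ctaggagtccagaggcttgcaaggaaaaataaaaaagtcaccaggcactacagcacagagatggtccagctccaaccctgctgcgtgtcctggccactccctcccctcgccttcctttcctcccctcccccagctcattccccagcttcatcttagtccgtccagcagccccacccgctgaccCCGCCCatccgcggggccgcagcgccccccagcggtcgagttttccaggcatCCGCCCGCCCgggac
Fbn1, chr2:125506439-125506688: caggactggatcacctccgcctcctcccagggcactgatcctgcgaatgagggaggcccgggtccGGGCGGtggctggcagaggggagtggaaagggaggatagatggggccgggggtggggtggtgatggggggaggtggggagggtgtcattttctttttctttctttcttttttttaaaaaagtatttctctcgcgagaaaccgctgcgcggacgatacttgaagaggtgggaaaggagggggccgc
Sparc, chr11:55420081-55420330: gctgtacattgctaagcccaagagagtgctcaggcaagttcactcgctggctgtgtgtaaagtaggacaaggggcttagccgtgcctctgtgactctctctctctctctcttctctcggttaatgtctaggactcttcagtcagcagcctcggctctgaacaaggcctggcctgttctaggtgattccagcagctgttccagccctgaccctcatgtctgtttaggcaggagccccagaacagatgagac

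The motifs searched were the TATA box (TATAAA), the CCAAT box, the GC box of the Sp1 factor (GGGCGG), the AP-1 site (TGANTCA), the CArG box and the NF-kB site, on both strands. The Col6a1 window held 1 AP-1 match, 90 bases before the start, a motif present in 6.75% of 32851 promoters of the same length. The Col6a2 window held 3 GGGCGG matches, of which the pair closest to the start overlap, and the Fbn1 window held 1, against 32.7% of all promoters with this motif. Sparc held none of the 6. A window upstream of a further annotated Col6a2 start overlaps the one shown and held 1 GGGCGG and 1 NF-kB match, the latter found in 7.25% of promoters. The ratio of observed to expected CpG was 0.677 for Fbn1 and 0.606 for the Col6a2 window shown, above the median of 0.374 over all promoters, and 0.22 for Sparc and 0.17 for Col6a1, below it. A match describes these letters only. The ChIP regions below are on mm9, a different build, so their coordinates cannot be set against these.

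Values below are normalized reads per region, as the authors computed them. A deposited cell lists the libraries of a group without replicate numbers, so a, b and c stand for the values in the order they are written. Distances run from the region's centre to the annotated start of the gene and are negative upstream. Rose and fell mean a Benjamini-Hochberg adjusted p under 0.05 from limma, fitted on log2(normalized count + 0.5) over all listed regions of a table. Higher and lower describe values or the authors' own adjusted p. Every log2 change is on that log2(count + 0.5) scale, as Tg197 or TNF minus control. Control was taken to be WT, an assumption in the tables that share no control libraries with another table. In the authors' deposited tables the largest p of a region's best window rounds to 0.0001. Every listed region thus already differed between the groups by the authors' own window test. How regions entered a table is not stated, and regions of these genes outside the tables have no value here. Limma tests the same libraries from which those p-values came. Its calls, the counts of groups without overlap and the shares of a table are therefore not independent evidence of a change.

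Of the 81 regions, 64 lay in the annotated gene body and 17 within 3 kb of a start, of which 4 were within 1 kb. None was in the class closest to the start, within 250 bp, and 2 spanned a start site. Fbn1 had 21 regions, Col12a1 and Fn1 10 each, Thbs1 9, Col1a1, Col6a2 and Loxl1 6 each, Col6a1 5, and Lox and Sparc 4 each. Col12a1 and Sparc were listed in 4 tables, Col6a1, Fn1, Fbn1, Loxl1 and Thbs1 in 3, and Col1a1, Col6a2 and Lox in 2. A pair of regions, of Col1a1 and Thbs1 at 3 weeks, lay just past the annotated 3′ end although the deposited class is gene body. In all 4 tables the libraries held between 321448 and 2780941 reads in listed regions. The 8 week and TNF tables share the same untreated WT libraries. In bulk chromatin, fewer cells carrying the mark and less mark per cell cannot be told apart.

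**Figure D1:**
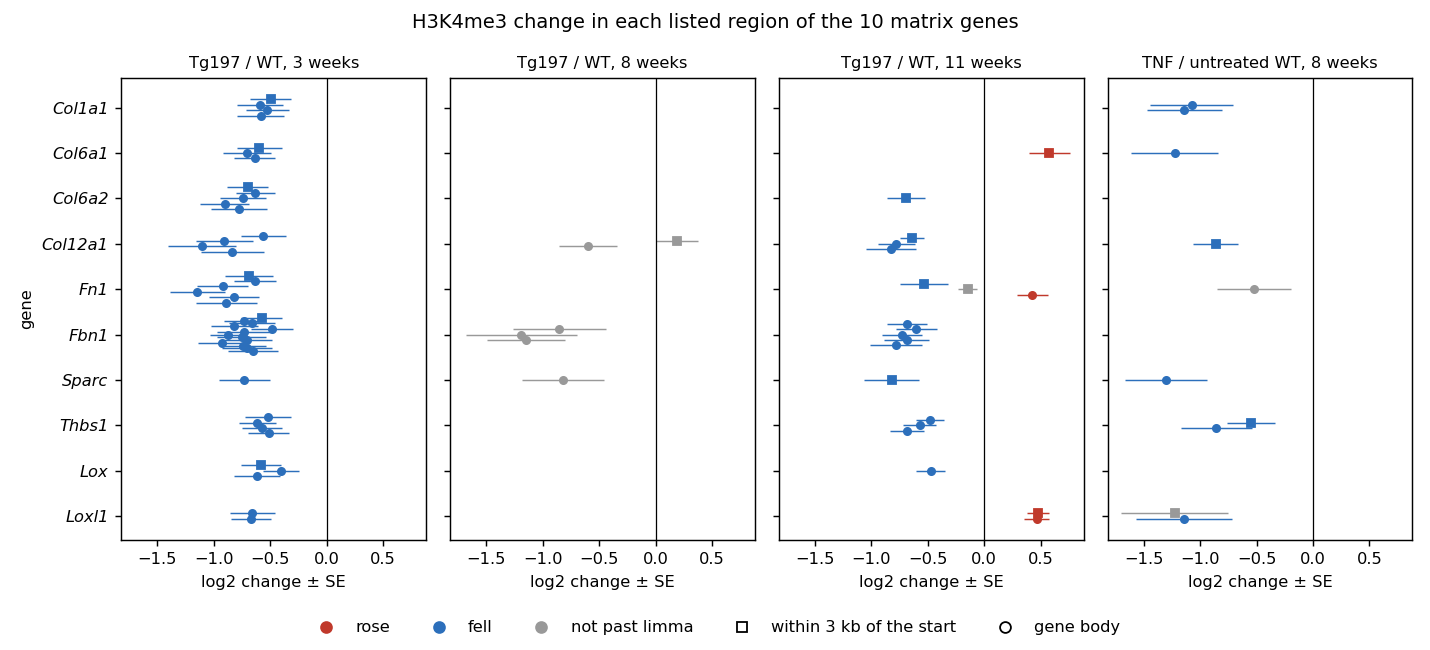
H3K4me3 change in each listed region of the 10 genes, as log2 change ± SE from limma, in the 4 comparisons. Squares are regions within 3 kb of a start and circles are gene-body regions, colored by whether limma called them. All 45 points of the 3 week panel lie below 0, and the 4 points that rose are all in the 11 week panel.

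At 3 weeks, normalized reads in every listed region of the 10 genes were lower in Tg197 than in WT fibroblasts. All 45 fell, in all 10 genes, and in all 45 every Tg197 library was below every WT library. Of all 13603 listed regions, 88.9% fell and 86.4% had every Tg197 library below every WT library, so the share among the members is near that of the whole table. The members' median log2 change was -0.69 and that of all listed regions -0.70. The range over members was -1.15 to -0.41. The authors' enrichment over input, a ratio, was lower in Tg197 in most of these regions. It was higher in Tg197 for Col1a1 at -2.08 kb (5.61 against 5.39), Lox at +5.96 kb (5.61 against 5.13) and Fbn1 at +57.57 kb (1.69 against 1.67).

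The fibril-forming chain Col1a1, which encodes the alpha 1 chain of type I collagen, had 4 regions. At -2.08 kb (chr11:94795001-94796000) Tg197 libraries read 197.91, 143.79 and 141.22 and WT libraries 236.29, 222.41 and 215.64. Every Tg197 value was below the lowest WT value, and the log2 change was -0.50 ± 0.18 (SE; limma adjusted p = 0.0217). The Col1a1 gene-body regions fell by 0.53 to 0.59 on the log2 scale.

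The type VI chains Col6a1 and Col6a2 behaved alike in sign. At -0.71 kb of Col6a1 (chr10:76189001-76190000) Tg197 read 85.05, 109.0 and 133.07 against WT 164.88, 150.88 and 172.51. The groups did not overlap, and the log2 change was -0.60 ± 0.20 (limma adjusted p = 0.0164). At -2.85 kb of Col6a2 (chr10:76088401-76089600) Tg197 read 87.43, 77.69 and 92.34 against WT 153.32, 134.12 and 131.85, with a log2 change of -0.70 ± 0.18 (limma adjusted p = 0.0143). The largest Col6a2 change, -0.90, was at +20.9 kb in the gene body.

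Col12a1, the fibril-associated collagen, had its nearest region at +3.18 kb (chr9:79562501-79564100). There Tg197 read 210.63, 200.6 and 177.88 against WT 348.65, 318.53 and 218.1, a log2 change of -0.56 ± 0.20 (limma adjusted p = 0.0195). WT c was the lowest of the WT libraries and still above all 3 Tg197 libraries. Its largest change was at +32.78 kb, where Tg197 read 58.82, 39.43 and 65.18 against WT 108.17, 120.7 and 117.06, a log2 change of -1.10 ± 0.30 (limma adjusted p = 0.0143).

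Fn1, which encodes fibronectin, held the largest fall of the members. At +19.79 kb (chr1:71679301-71680600) Tg197 read 72.33, 49.28 and 99.13 against WT 139.67, 171.0 and 162.65, so the highest Tg197 library was well below the lowest WT library. The log2 change was -1.15 ± 0.24 (limma adjusted p = 0.0143), and the other 5 Fn1 regions fell by 0.63 to 0.92 on the log2 scale. At -2.51 kb, the nearest, Tg197 read 71.53, 67.25 and 103.2 against WT 121.82, 135.23 and 126.92.

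Fbn1, which encodes fibrillin-1 of the elastic microfibrils, had 13 regions spread from -2.38 kb to +198.97 kb. All 13 fell, by 0.48 to 0.93 on the log2 scale. At -2.38 kb (chr2:125334001-125335100) Tg197 read 121.61, 92.77 and 103.2 against WT 155.42, 167.65 and 149.1, with a log2 change of -0.58 ± 0.18 (limma adjusted p = 0.015). The groups did not overlap in any of the 13.

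Among the crosslinking enzymes, Lox had the smallest change of all 45 regions. At +5.96 kb of Lox Tg197 read 209.04, 198.29 and 200.97 against WT 275.14, 274.94 and 256.3, tight within each group, with a log2 change of -0.41 ± 0.16 (limma adjusted p = 0.0279). At -1.69 kb of Lox Tg197 read 171.68, 143.21 and 176.52 against WT 220.53, 282.76 and 236.58. Loxl1, the oxidase best known for elastin, fell at +6.07 kb, where Tg197 read 120.81, 110.74 and 114.06 against WT 174.33, 145.29 and 239.05, and at +11.62 kb.

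The matricellular genes fell as well. Sparc, whose protein binds collagen, had 1 region, at +18.13 kb (chr11:55214901-55216000), where Tg197 read 105.71, 74.79 and 101.84 against WT 121.82, 148.65 and 204.55. The highest Tg197 library was below the lowest WT library, and the log2 change was -0.73 ± 0.22 (limma adjusted p = 0.0149). Thbs1, which encodes thrombospondin-1, fell in 4 regions from +7.84 to +15.94 kb. At +7.84 kb Tg197 read 166.91, 109.58 and 179.24 against WT 221.58, 201.17 and 219.33, a log2 change of -0.52 ± 0.20 (limma adjusted p = 0.0261).

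These calls at 3 weeks depend on the regions chosen for scaling and on the WT libraries. When libraries were instead scaled to their medians over all listed regions, none of the 45 passed limma and 21 turned to a small positive value. Of all listed regions 940 rose and 6 fell, and how many changed sign was not counted. That scaling by its construction takes out a change shared by most listed regions. When libraries were scaled to listed regions within 1 kb of a start, all 45 fell, with a median of -1.02. Of all listed regions 12238 fell and 3 rose, with a median of -1.04. This scaling too, by its construction, takes out a change shared by the regions it uses, so its counts are not separate support. Without WT c 0 members and 0 of all listed regions passed (43 and 9776 at an unadjusted p under 0.05). Without WT b 29 of the 45 members and 7955 of all listed regions passed. Tg197 b, the deepest library of that table relative to the authors' scaling (1.72 against 0.74 to 1.26 in the other Tg197 libraries and 0.81 to 0.95 in WT), was the lowest of the Tg197 libraries in 37 of 45 member regions and in 76% of all listed regions. The part of depth was not tested. Without Tg197 b 44 of the 45 still fell, with a median of -0.59. Of all 13603 listed regions 11660 fell in that fit, with a median of -0.54.

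**Figure D2:**
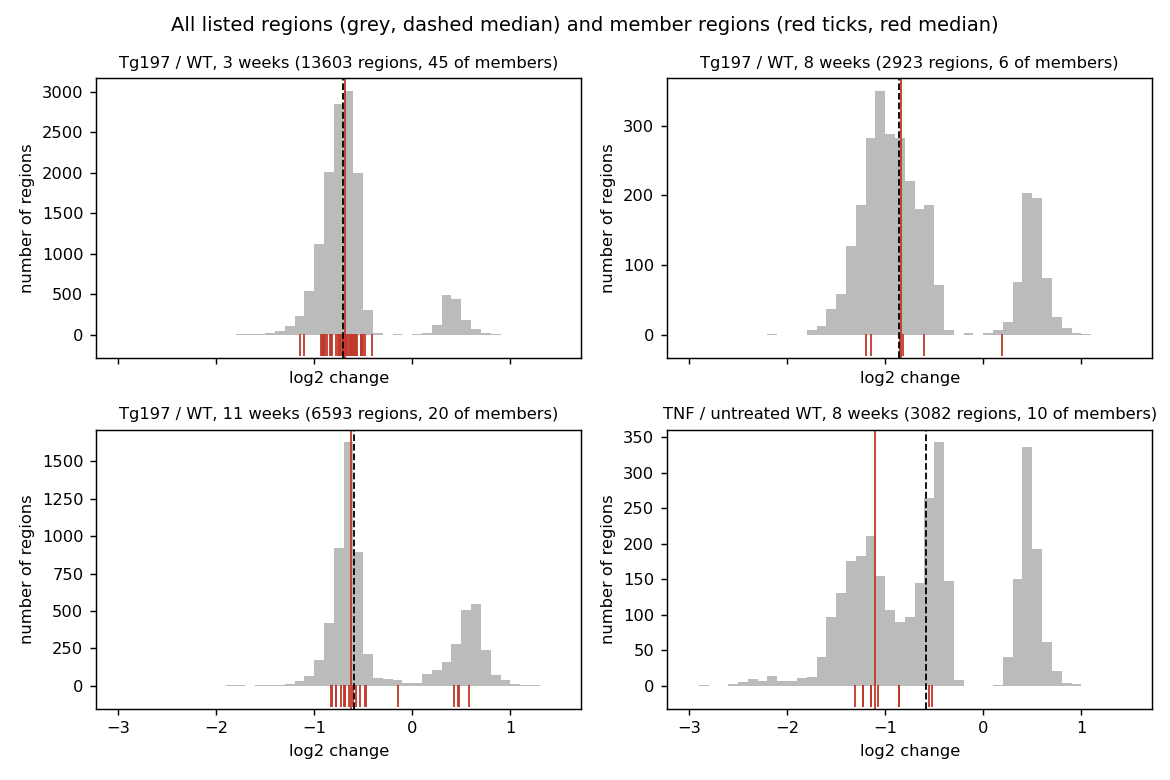
Distribution of log2 changes over all listed regions of each table in grey, with the median dashed, and the member regions as red ticks with their median as a red line. The medians of members and of all regions are close at 3, 8 and 11 weeks (-0.69 and -0.70, -0.84 and -0.86, -0.62 and -0.60), and the members' median lies lower in the TNF table (-1.11 and -0.58).

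The wider matrix list, 111 symbols of collagens, glycoproteins, matricellular proteins, crosslinkers and collagen-processing enzymes beside the members, gave 38 listed genes at 3 weeks. Of these, 33 only fell, 2 only rose and 2 had regions in both directions, with a median log2 change of -0.68. Over all regions at 3 weeks, 88.9% fell. Here and below a gene of a list counts as fallen or risen if any of its regions did. Such counts of genes and the shares of regions beside them are thus in different units. Fibrillar collagens fell in 7 of 8 listed genes, among them Col11a2 by 1.43, Col24a1 by 1.24 and Col3a1 by 0.90 on the log2 scale. Col7a1, the anchoring-fibril collagen, fell by 1.26 and the crosslinkers Tgm1 and Tgm2, both transglutaminases, fell by 0.85 and 0.76 on that scale. Smoc2 among matricellular genes and Crtap among processing genes only rose.

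At 8 weeks only Col12a1, Fbn1 and Sparc were listed, with 6 regions. The authors' adjusted p was under 0.05 with a lower value in Tg197 for 5 of the 6, against 77.2% of the 2923 listed regions, and limma called none of the 6 (3 at an unadjusted p under 0.05). Over the whole table limma also called 0 regions (percent called 0.0). The unadjusted p was under 0.05 in 1876 of them, and voom, run on recovered reads, also called 0. The members' median log2 change was -0.84 and that of all listed regions -0.86.

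Fbn1 was lower in 3 gene-body regions. At +9.47 kb (chr2:125322201-125323200) Tg197 read 49.16, 67.42 and 79.2 against WT 152.04, 146.1 and 70.29. WT a and b stood above all Tg197 libraries, and WT c lay between Tg197 b and c. The log2 change was -0.85 ± 0.41, with a limma adjusted p of 0.0908 and an adjusted p of 0.00322 in the authors' deposited table.

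At +19.17 kb of Fbn1 Tg197 read 32.06, 62.03 and 62.57 against WT 156.42, 141.39 and 68.14, a log2 change of -1.19 ± 0.49 (limma adjusted p = 0.0736). At +182.72 kb Tg197 read 52.37, 75.51 and 96.63 against WT 190.04, 199.52 and 111.18, a log2 change of -1.15 ± 0.35 (limma adjusted p = 0.0725). In both, WT c was the WT library nearest to the Tg197 values, though the groups did not overlap. Sparc at +24.58 kb read 59.85, 84.95 and 86.33 in Tg197 against 160.81, 179.1 and 84.64 in WT, so WT c lay inside the Tg197 range.

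Col12a1 had neighbouring regions of opposite sign. At +3.98 kb (chr9:79562001-79563000) Tg197 read 85.5, 87.65 and 95.04 against WT 159.35, 136.68 and 114.76, with no overlap and a log2 change of -0.60 ± 0.26 (limma adjusted p = 0.0753), which became 0.11 when libraries were scaled to all listed regions. At +2.43 kb (chr9:79563501-79564600) Tg197 read 231.37, 195.52 and 223.35 against WT 191.51, 191.66 and 185.77, all Tg197 libraries above all WT libraries. That difference was small, with a log2 change of 0.19 ± 0.19 (limma adjusted p = 0.348) and an adjusted p of 1.0 in the authors' deposited table. Of the 6 member regions, 3 had every Tg197 library below every WT library and 1 the reverse, against 46.3% and 16.9% of all listed regions.

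WT c at 8 weeks stood apart from WT a and b in most listed regions, members or not. It was the lowest WT library in 6 of 6 member regions here, against 79.6% of all listed regions. In the TNF table these were 10 of 10 and 70.5%. The median of WT c over the mean of WT a and b was 0.534 and 0.558 in member regions. Over all listed regions it was 0.561 and 0.717, and over listed gene-body regions 0.52 and 0.55. WT c was also the deepest of the WT libraries (1.39 relative to the authors' scaling, against 0.68 and 0.64), and the part of depth was not tested. Without WT c, limma called 5 of the 6 members as fallen, and 2235 of the 2923 listed regions fell and 328 rose. The members' median was then -1.18. When libraries were scaled to those listed regions that lie within 1 kb of a start, 4 of the 6 fell, as did 1717 of the 2923 listed regions.

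Of the wider matrix list 21 genes were listed at 8 weeks, and by the authors' adjusted p 5 were higher and 15 lower. Of all listed regions 77.2% were lower by that p. Lower genes included Col27a1, with 45.9 ± 19.8 normalized counts in Tg197 and 126.4 ± 45.2 in WT (SD, n = 3 each), and Loxl2, a lysyl oxidase, with 77.7 ± 25.3 and 199.4 ± 80.1. Col1a2, the partner chain of Col1a1, was higher, at 174 ± 10.8 in Tg197 and 121.6 ± 57.7 in WT, with overlapping libraries. Limma called none of the 21.

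**Figure D3:**
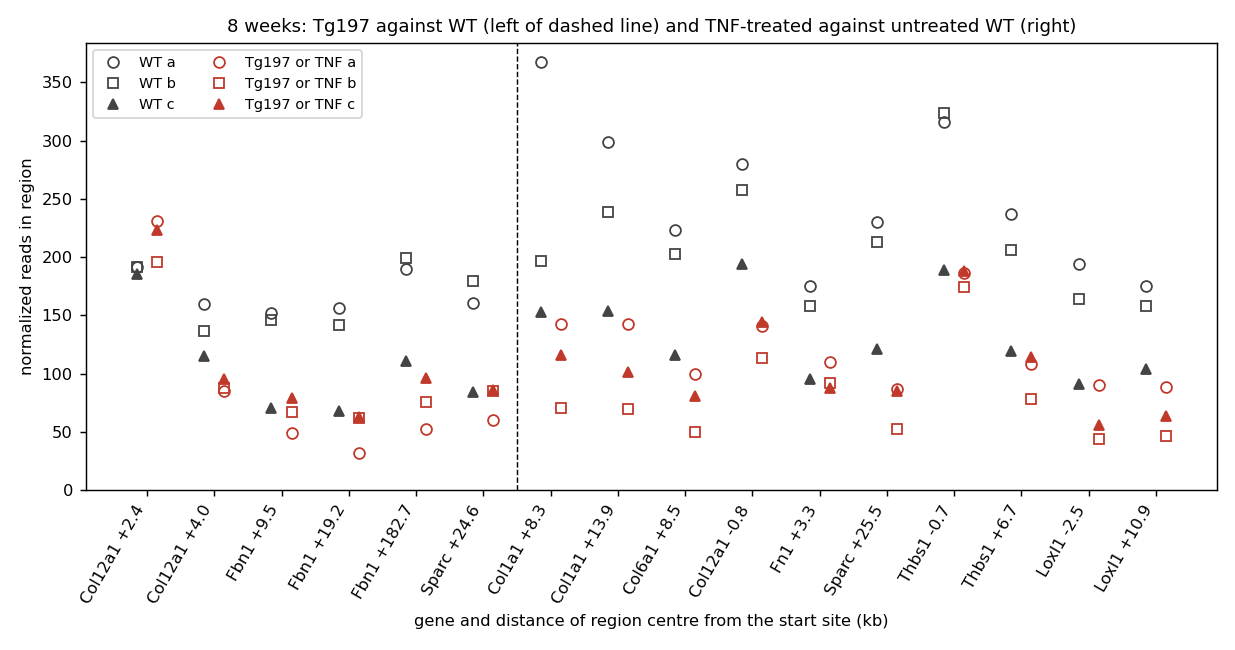
Normalized reads in every library for the 16 member regions of the 8 week tables, with Tg197 against WT left of the dashed line and TNF-treated against untreated WT right of it. WT c (filled dark triangle) is the lowest of the WT libraries in all 16 regions, against 79.6% and 70.5% of all listed regions of the 8 week and TNF comparisons.

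At 11 weeks the members split. Of 20 listed regions 4 rose, in Loxl1 (2 regions), Col6a1 and Fn1, 15 fell, in 7 genes, and 1 of Fn1 was not called. Over all 6593 listed regions 29.6% rose and 67.7% fell. The members' median log2 change was -0.62, beside -0.60 for all listed regions. Col1a1 was not listed at this age. The share of all listed regions whose groups did not overlap is not given here for 11 weeks, so non-overlap below describes single regions only.

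Loxl1 rose across its start. The region chr9:58159101-58161800, centred at +0.57 kb, spans the start site, and Tg197 libraries read 869.49, 752.0 and 951.03 against WT 665.58, 543.33 and 639.23. Every Tg197 library was above the highest WT library. The log2 change was 0.48 ± 0.10 (limma adjusted p = 0.00434), a 1.39-fold difference in means.

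The neighbouring Loxl1 region at +3.22 kb (chr9:58157301-58158300) read 235.58, 237.69 and 257.85 in Tg197 and 198.68, 173.55 and 159.53 in WT. Again the groups did not overlap, with a log2 change of 0.46 ± 0.11 (limma adjusted p = 0.00446). The authors' enrichment over input in the region across the start was 11.82 in Tg197 and 7.94 in WT. Both Loxl1 regions kept their sign and their side of the limma threshold in every limma alternative run, with log2 changes from 0.32 to 0.82. By the authors' adjusted p, 0.00475 across the start and 0.00112 at +3.22 kb, neither passed a threshold of 0.001, and nor did the rises of Col6a1 and Fn1. How many of all listed regions pass that threshold was not counted.

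Col6a1 rose at -2.81 kb (chr10:76191101-76192100), where Tg197 read 119.93, 193.63 and 180.83 against WT 112.59, 93.32 and 120.21. Tg197 b and c were above all WT libraries, and Tg197 a lay just below WT c, so the groups overlapped. The log2 change was 0.58 ± 0.18 (limma adjusted p = 0.0089), and limma adjusted p over the alternatives ran from 0.000632 to 0.046. The other type VI chain, Col6a2, fell at -1.7 kb (chr10:76087301-76088400), where Tg197 read 80.31, 96.3 and 67.81 against WT 134.66, 134.31 and 123.58, a log2 change of -0.69 ± 0.17 (limma adjusted p = 0.00441). Whether the 2 genes' changes differ was not tested.

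Fn1 had 3 regions of different sign. At +4.94 kb (chr1:71694301-71695300) Tg197 read 138.13, 138.31 and 134.78 against WT 110.38, 99.42 and 96.61, without overlap, and it rose by a log2 change of 0.42 ± 0.14 (limma adjusted p = 0.00921). When libraries were scaled to those listed regions that lie within 1 kb of a start, the change was 0.28 and the limma adjusted p 0.0742.

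At +1.84 kb (chr1:71697301-71698500), the Fn1 region with the highest level per kb of the 20 (357.03 in WT and 322.13 in Tg197), Tg197 read 395.13, 381.12 and 383.42 against WT 428.26, 452.63 and 404.43. All Tg197 libraries were below all WT libraries by a small margin, with a log2 change of -0.15 ± 0.08 (limma adjusted p = 0.0996). Its call depended on the scaling. The change was 0.20 with libraries scaled to all listed regions (limma adjusted p = 0.132), and with scaling to those within 1 kb of a start it was -0.29 and the region fell (0.00602). At -1.46 kb (chr1:71700701-71701700) Tg197 read 110.29, 118.84 and 106.32 against WT 214.13, 105.53 and 187.61. WT b was below every Tg197 library, so the groups overlapped, and the region fell by 0.53 ± 0.21 on the log2 scale (limma adjusted p = 0.0283). That call was lost without Tg197 c (adjusted p = 0.0733), WT a (0.177) or WT c (0.116) and with voom (0.0728). It was also lost with libraries scaled to all listed regions, where the change was -0.19 (limma adjusted p = 0.372). Without WT b the change was -0.84.

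The other members fell. Sparc at -2.02 kb (chr11:55235101-55236100) read 49.26, 113.72 and 68.65 in Tg197 and 135.76, 132.56 and 119.08 in WT, a log2 change of -0.82 ± 0.25 (limma adjusted p = 0.00704). Tg197 b was the library closest to WT, and without Tg197 a the change was -0.54. Lox at +5.06 kb read 173.47, 199.78 and 195.06 against 219.65, 284.31 and 292.09, a log2 change of -0.48 ± 0.12 (limma adjusted p = 0.0047), with no overlap.

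Col12a1 fell in 3 regions. At +2.58 kb (chr9:79563001-79564800) Tg197 read 305.18, 276.62 and 302.22 against WT 390.74, 477.92 and 519.02, well separated, with a log2 change of -0.64 ± 0.11 (limma adjusted p = 0.00434). The changes at +27.78 and +106.13 kb were -0.78 and -0.83. At +106.13 kb Tg197 c read 56.93, below 103.87 and 117.82 in Tg197 a and b, and without it the change was -0.51 (limma adjusted p = 0.00698). The +2.58 kb region shares 1100 bases with the 3 week region at +3.18 kb, where the change was -0.56, and 1100 bases with the 8 week region at +2.43 kb, where it was 0.19.

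Thbs1 fell in 3 regions, with the nearest at +4.29 kb (chr2:117941301-117942600) reading 259.13, 282.77 and 255.34 in Tg197 and 312.37, 361.06 and 450.49 in WT. Its log2 change was -0.48 ± 0.12 (limma adjusted p = 0.00453), and every Tg197 library was below every WT library. Fbn1 fell in 5 gene-body regions between +29.17 and +188.87 kb, by 0.60 to 0.78 on the log2 scale. At +29.17 kb Tg197 read 62.11, 85.04 and 85.39 against WT 124.73, 115.12 and 131.44, with no overlap.

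At 11 weeks the scaling was varied too. When libraries were scaled to their medians over all listed regions, the median over all listed regions moved from -0.60 to -0.26. The 4 rises stayed past limma and 1 of the 15 falls did, Col12a1 at +27.78 kb. Of all 6593 listed regions 2078 rose and 681 fell with that scaling. Scaled to listed regions within 1 kb of a start, 3 member regions rose and 16 fell, and of all listed regions 1488 rose and 4519 fell.

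**Figure D4:**
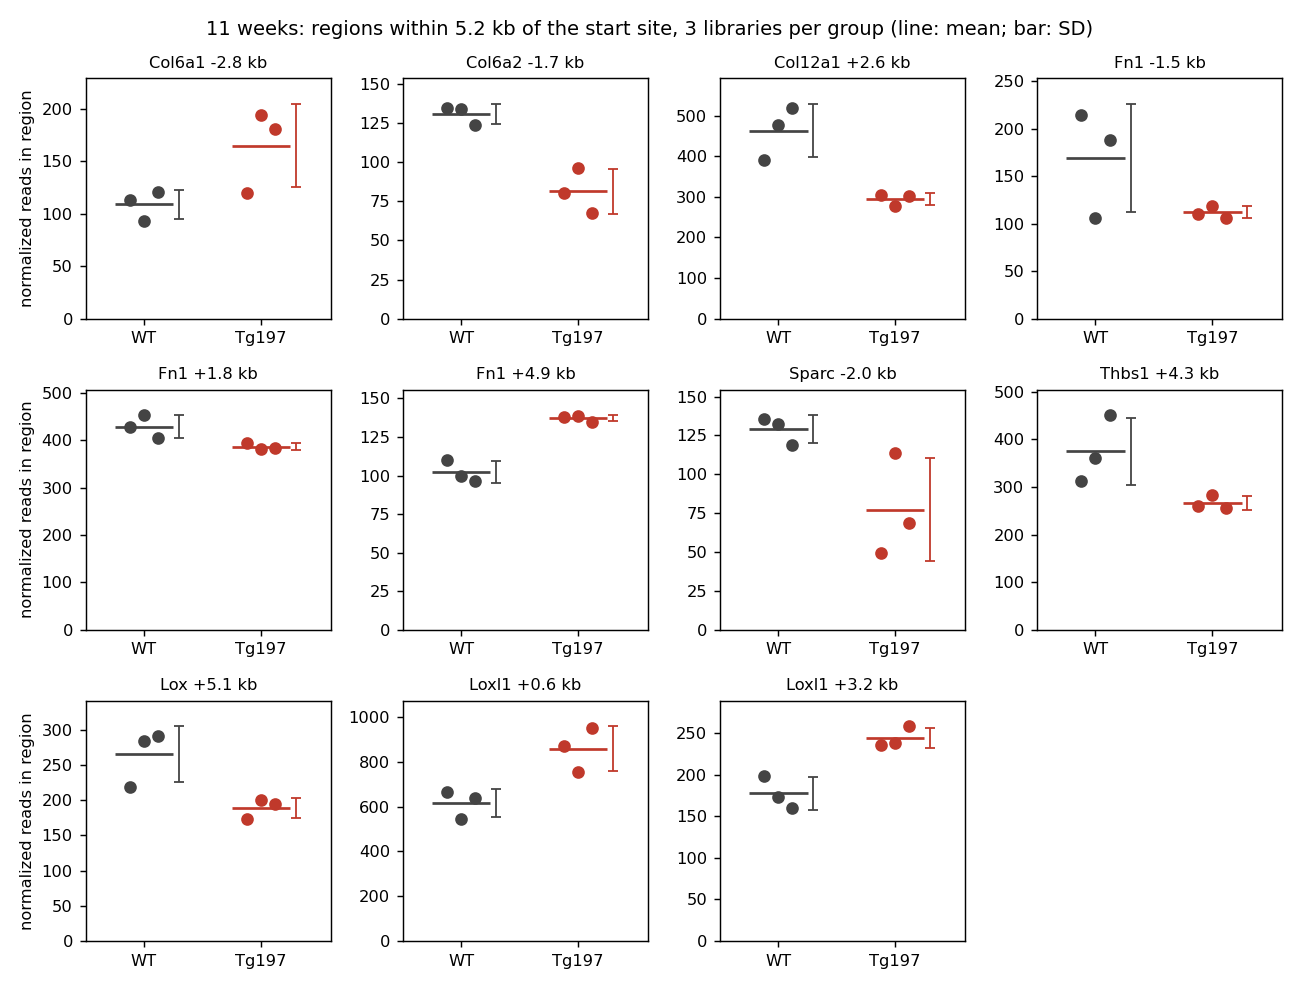
Normalized reads per library in the 11 member regions within 5.2 kb of a start at 11 weeks, WT in grey and Tg197 in red, with the mean as a line and the SD as a bar (n = 3). All Tg197 libraries are above all WT libraries for Loxl1 at both positions and for Fn1 at +4.94 kb. The share of all listed regions with such separation at 11 weeks is not given.

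Of the wider matrix list 32 genes were listed at 11 weeks, of which 10 only rose, 19 only fell and 2 did both, with a median of -0.59. Over all listed regions 29.6% rose and 67.7% fell. Both directions occurred among the crosslinkers beside Lox and Loxl1. Loxl4, upstream of its start, rose by 0.65 ± 0.18 (log2; limma adjusted p = 0.0055) and Loxl3 also rose, while Loxl2 fell by 0.68 on that scale and Tgm1, at its start, by 0.73. By the authors' adjusted p Loxl2 had both a higher and a lower region. Collagens that only rose included Col7a1 (log2 change 0.81) and Col8a1 at its promoter (0.48). Col5a3 and Col16a1 were the 2 genes with both, each with a region that rose (0.75 and 0.63) and another that fell, and the fibrillar collagens Col11a1 and Col1a2 fell by 1.18 and 0.75 on the log2 scale. All 4 listed matricellular genes (Fstl1, Thbs2, Thbs4 and Wisp2) fell, in a table where 67.7% of regions did.

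TNF added to WT cells was followed by lower normalized H3K4me3 reads in all 10 listed regions of the members. Of the 10, 8 fell, in Col1a1, Col6a1, Col12a1, Loxl1, Sparc and Thbs1. Over all 3082 listed regions, 42.6% fell and 16.5% rose. By the authors' adjusted p all 10 were lower, against 72.3% of the table, and in 9 of 10 every TNF library was below every untreated library, against 51.8%. The members' median log2 change was -1.11 and that of all listed regions -0.58. Of the 10, 7 were gene-body regions, a class whose median over the table was -1.21, and the members' gene-body median was -1.14. The authors' enrichment over input was higher with TNF for Thbs1 at -0.66 kb (7.39 against 4.92) and +6.74 kb (3.96 against 3.37). It was also higher for Col12a1 at -0.77 kb (2.95 against 2.55) and Fn1 at +3.34 kb (2.95 against 1.98). In the remaining member regions it was lower with TNF.

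Col1a1 fell in a pair of gene-body regions. At +8.32 kb (chr11:94805401-94806400) TNF-treated cells read 142.9, 70.46 and 116.1 against untreated 367.23, 196.77 and 152.51, a log2 change of -1.08 ± 0.37 (limma adjusted p = 0.0461). At +13.92 kb they read 142.9, 69.37 and 101.8 against 298.59, 239.07 and 153.33, a log2 change of -1.14 ± 0.33 (limma adjusted p = 0.046). TNF b was lowest and untreated a highest in both, with no overlap.

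Col6a1 at +8.49 kb (chr10:76179701-76180900) read 99.49, 50.12 and 80.89 with TNF and 223.09, 202.29 and 116.01 without, a log2 change of -1.23 ± 0.39 (limma adjusted p = 0.046). The groups did not overlap, and untreated c was nearest to the treated values. Col12a1 at -0.77 kb (chr9:79566501-79568000), ending just upstream of its start, read 141.09, 113.32 and 144.17 against 279.71, 257.46 and 193.89, a log2 change of -0.86 ± 0.20 (limma adjusted p = 0.046).

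Fn1 at +3.34 kb was not called. It read 110.34, 91.53 and 87.49 with TNF and 175.04, 158.15 and 95.73 without, so untreated c lay inside the treated range (log2 change -0.53 ± 0.33, limma adjusted p = 0.148). Among the crosslinkers Loxl1 fell at +10.92 kb, with 88.64, 46.49 and 63.83 against 175.04, 158.15 and 103.84 (log2 change -1.14 ± 0.42, limma adjusted p = 0.0481). At -2.48 kb (chr9:58163001-58164000) Loxl1 read 90.44, 43.95 and 56.13 against 193.91, 163.67 and 90.86, with a limma adjusted p of 0.0501. In that region untreated c lay above treated a by less than 1 normalized count.

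Sparc had the largest change of the 10, at +25.53 kb across its 3′ end (chr11:55207401-55208700). TNF-treated cells read 86.83, 52.67 and 84.74 against untreated 229.95, 213.32 and 120.88, a log2 change of -1.31 ± 0.36 (limma adjusted p = 0.046). No treated library reached the lowest untreated one.

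Thbs1 fell across its start, at -0.66 kb (chr2:117936301-117937700), and at +6.74 kb. Across the start TNF-treated cells read 186.32, 173.98 and 188.19 against untreated 315.75, 323.66 and 189.02, so untreated c was within 1 normalized count of treated c (log2 change -0.55 ± 0.21, limma adjusted p = 0.0499). At +6.74 kb they read 108.53, 78.45 and 113.9 against 236.81, 205.97 and 119.25 (log2 change -0.86 ± 0.32, limma adjusted p = 0.0481).

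These calls depend on single libraries. Without TNF b, TNF c, untreated a or untreated b in turn, none of the 10 members and none of the 3082 regions passed limma (3 to 6 members and 1125 to 1234 regions at an unadjusted p under 0.05), while without untreated c all 10 members and 2770 regions passed. When libraries were scaled to all listed regions, 3 of the 10 passed, those of Col6a1, Sparc and Col1a1 at +13.92 kb. Of the 3082 listed regions 772 rose and 258 fell with that scaling. Scaled to listed regions within 1 kb of a start, 9 of the 10 fell, as did 1946 of the 3082. TNF b was the deepest library (2.75 relative to the authors' scaling, against 0.55 and 1.82) and the lowest treated library in 9 of 10 member regions and 67.5% of all listed regions. The part of depth was not tested.

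The wider matrix list gave 19 genes for TNF, of which 12 fell and none rose by limma (by the authors' adjusted p 18 were lower and 1 higher). Over all listed regions of that comparison, 42.6% fell and 16.5% rose by limma, and 72.3% were lower by the authors' adjusted p. The fallen genes with the largest changes per list were Col5a1 (log2 change -1.81), Col8a2 (-1.38), Loxl3 (-1.09), Efemp2 (-1.14) and the matricellular Thbs3 (-1.07, with overlapping libraries). Cyr61, also matricellular, fell with a log2 change of -0.53. The collagen chaperones and processing genes Fkbp10, Pcolce and P4hb changed by -1.31, -1.29 and -1.19 on the log2 scale, and Serpinh1 and Lepre1 also fell.

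**Figure D5:**
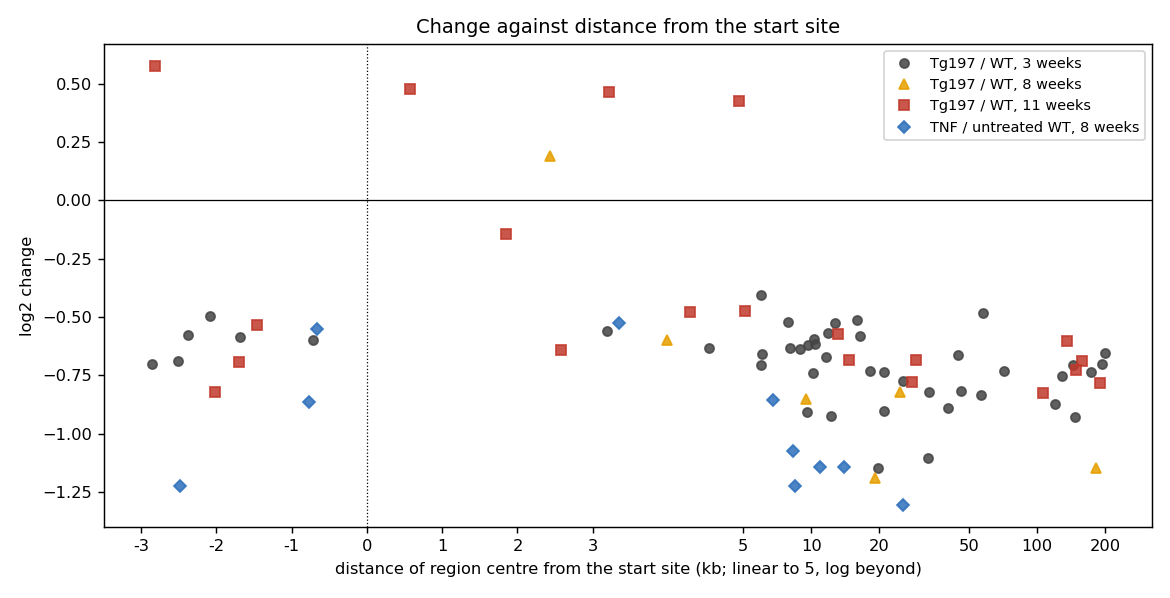
Log2 change of all 81 member regions against the distance of the region's centre from the annotated start, on an axis that is linear to 5 kb and logarithmic beyond. The 4 regions that rose lie between -2.81 and +4.94 kb of a start, and every region beyond +5 kb is below 0.

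The members that rose were all in the 11 week table, where 29.6% of all regions rose. They shared a position within 5 kb of a start, where 6 further 11 week member regions fell or were not called. In this table the median log2 change over all listed regions within 3 kb of a start was 0.09, and in gene bodies -0.63. The members within 3 kb had a median of -0.53.

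Levels per kb of region were compared within the WT libraries of 11 weeks. The highest of the members' regions were Fn1 at +1.84 kb (357.03), Thbs1 at +4.29 kb (288.18), Lox at +5.06 kb (265.35), Col12a1 at +2.58 kb (256.98) and Loxl1 at +0.57 kb (228.17), and the lowest was Fn1 at +4.94 kb (102.14), followed by Fbn1 at +147.97 kb (102.94). In units of the authors' enrichment over input, Lox had 11.05 in WT and 8.17 in Tg197, against 7.94 and 11.82 for Loxl1 across its start, opposite orders for the 2 oxidases.

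Markers of the fibroblasts and of other cell types were read in the same tables. By the authors' adjusted p, 37 markers of leukocytes, endothelium, cartilage, bone, muscle, fat and epithelium gave 10 listed genes at 3 weeks, 7 at 8 weeks, 8 at 11 weeks and 4 in the TNF table. Of these, 9, 7, 8 and 4 had lower regions, among them Comp, Itgam and Pecam1. Most listed regions of any gene were lower too. By limma 88.9% of all listed regions fell at 3 weeks and 67.7% at 11 weeks. By the authors' adjusted p 77.2% were lower at 8 weeks and 72.3% with TNF. These are shares of regions, at 3 and 11 weeks by another test, whereas the marker counts are of genes. The markers' summed level ran from 2222.3 to 2952.0 in Tg197 and 3894.9 to 4332.5 in WT at 3 weeks. At 11 weeks it ran from 1611.6 to 1987.4 and 2107.9 to 2431.6. At 8 weeks the sums were 726.2 to 894.2 in Tg197 and 1128.3 to 1495.6 in WT, and for TNF they were 567.3 to 857.4 with treatment and 1125.2 to 1510.1 without. Flt1 of the endothelium was higher at 3 weeks, Pecam1 and Runx2 had both higher and lower regions at 11 weeks, and Ptprc, the pan-leukocyte marker, was listed in none of the tables. The part of other cell types in the members' falls was not tested. Of 8 synovial fibroblast markers, the 3, 8 and 11 week tables listed 6, 2 and 3, and that of TNF listed 2, and they went in both directions. At 3 weeks Pdpn and Pdgfra had higher regions, Cdh11 lower ones, and Pdgfrb, Vcam1 and Vim both. At 8 weeks Pdpn and Thy1 were higher. At 11 weeks Pdgfra and Vcam1 were higher and Pdgfrb had both, and with TNF Pdpn was higher and Pdgfrb lower.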

How the data were processed

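H3K4me3 was measured by ChIP-seq in 21 libraries of 7 groups and 1 input, and the deposited data were 4 comparison tables on mm9. Tools named in the submitters' processing notes, with neither version nor role, are Cuffdiff, TopHat2, BWA, Cufflinks and TopHat, and the build is mm9. No region caller is named in the sources used here.

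The authors' normalized counts stand 3 to a cell, 1 cell per group, per the file headers. The deposited group averages are the signal, the authors' enrichment columns are a ratio, and the authors' fold columns hold log2 changes. The deposited p-value columns hold raw and adjusted p-values. The column names speak of treatment and control, and control was taken to be WT. In 54 regions shared by the 8 week tables all 162 control values came from equal reads. This identifies control as the untreated WT libraries in those tables only. The tables of the other ages share no such libraries, so for them the reading is an assumption. The direction of every change at those ages rests on it.

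Within a tolerance of 0.02, 100.0% of values were whole multiples of what 1 read is worth in that library, and the whole reads recovered were used for voom and for depth only. The planned test assumed 1 value per library, and 3 values in 1 cell were split for it. Limma 3.58.1 in R 4.3.3 was run with a variance trend and tested on simulated data.

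The members and lists were chosen with earlier results of these data known. The rule for naming was full values for the region of each member nearest its start and for each called region, and at 3 and 11 weeks, where nearly all were called, the remaining regions are given by range. Of the wider lists, up to 3 genes per list and table were eligible by the size of the change, and a few others are named from the counts. RefSeq entries matched 4 of 10 members, the others being Col1a1, Col12a1, Fn1, Lox, Loxl1 and Thbs1. The alternatives were a pseudocount of 5, a minimum mean of 50, voom, 2 other scalings, a threshold of 0.001 and leaving out each library.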

Additional observations from a re-analysis of the deposited data

Results flagged for a closer look

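Some overlapping regions of Col12a1 near its start differed in sign between ages, with no overlap between Tg197 and WT libraries in any of them. The log2 change was -0.56 at 3 weeks (+3.18 kb) and -0.64 at 11 weeks (+2.58 kb), and at 8 weeks (+2.43 kb) it was 0.19. The 8 week region shares 600 bases with the 3 week region and 1100 bases with the 11 week region. The 8 week change passed neither limma (adjusted p = 0.348) nor the authors' test (adjusted p = 1). Another 8 week region, at +3.98 kb, shares 500 bases with the 3 week region and was lower like it (-0.60). With libraries scaled to all listed regions the 3 week change was 0.11, and the difference between ages was not tested.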

How the results depend on the processing

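No paired analysis was possible because no replicate numbers accompany the values of a group. A pseudocount of 5 and voom left the counts of members and of all regions within 1.5 times. A minimum mean of 50 left every count and median as in the main fit, so it gave no separate check. With each library scaled to all listed regions, 946 regions (940 rose, 6 fell) passed limma in the 3 week comparison, 414 (338, 76) in that of 8 weeks, 2759 (2078, 681) in that of 11 weeks and 1030 (772, 258) in that of TNF, in place of 12733 (637, 12096), 0, 6414 (1952, 4462) and 1823 (509, 1314), and member regions were 0, 0, 5 (4 rose, 1 fell) and 3 in place of 45, 0, 19 and 8. The median over all listed regions moved to -0.04, -0.15, -0.26 and -0.07, a shift towards 0 that this scaling brings by its construction. Scaled to listed regions within 1 kb of a start, 8 weeks had 1729 regions (12 rose, 1717 fell) and 4 members. The splits elsewhere were 3 rose and 12238 fell at 3 weeks, 1488 and 4519 at 11 weeks and 221 and 1946 with TNF. The medians at 3, 8 and 11 weeks and with TNF were -1.04, -0.99, -0.74 and -0.68. By its construction this scaling takes out a change shared by listed regions near a start. At a threshold of 0.001 on the authors' adjusted p, 43, 3, 9 and 4 members passed, in place of 45, 5, 19 and 10. The 9 at 11 weeks were all lower, so that none of the 4 rises passed. This threshold was applied to the members only, so these counts have no share of all listed regions beside them.

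Leaving out 1 library gave 0 to 13397 regions and 0 to 45 members at 3 weeks, 0 to 2563 and 0 to 5 at 8 weeks, 6139 to 6276 and 18 to 19 at 11 weeks, and 0 to 2770 and 0 to 10 with TNF. At 3 weeks without WT a 8117 regions and 31 members passed, without WT b 7955 and 29, and without WT c 0 and 0 (9776 regions at an unadjusted p under 0.05).

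Scaling to all listed regions turned the sign of 23 member regions. At 3 weeks the log2 changes became, for Fn1 at +8.04 kb 0.034, Col6a2 at +4.55 kb 0.035, Col6a1 at +8.94 and -0.71 kb 0.029 and 0.071, Loxl1 at +6.07 kb 0.0080 and Col12a1 at +3.18 kb 0.11. For Col1a1 at -2.08, +10.32, +12.72 and +16.37 kb they became 0.17, 0.076, 0.14 and 0.085, for Lox at +9.66, +5.96 and -1.69 kb 0.049, 0.26 and 0.082, and for Thbs1 at +7.84, +10.39, +11.84 and +15.94 kb 0.14, 0.053, 0.098 and 0.15. For Fbn1 at +198.97, +57.57, +44.57 and -2.38 kb they became 0.013, 0.19, 0.0027 and 0.091. Col12a1 at +3.98 kb at 8 weeks became 0.11 and Fn1 at +1.84 kb at 11 weeks 0.20.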
